A study of Mus musculus with 78 samples.

Results

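ATF4, ATF5, C/EBPβ and C/EBPγ are basic leucine zipper (bZIP) transcription factors, and their mRNAs, Atf4, Atf5, Cebpb and Cebpg, were followed through every total RNA and polysome RNA library of the series. They were taken from the deposited count table by gene symbol, where their identifiers are ENSMUSG00000042406.9 (Atf4), ENSMUSG00000038539.16 (Atf5), ENSMUSG00000056501.4 (Cebpb) and ENSMUSG00000056216.10 (Cebpg). All 4 were found among its 14695 genes, and all 4 passed the filter on low counts in each fit. The cells were primary CD8+ T cells of C57BL/6J mice, taken from lymph node and spleen and used on the third day of activation. For the nutrient experiment, culture went on for 3 h in medium that lacked arginine (NoArginine), branched-chain amino acids (NoBCAA), glucose (NoGlucose), glutamine (NoGlutamine) or methionine (NoMethionine), or in the Control medium. The drug experiment used 3 h with halofuginone, which blocks the charging of tRNA by prolyl-tRNA synthetase, with Torin1 (labelled Torin), an inhibitor of the kinase mTOR, with 4EGI-1 (labelled 4EGi1), a compound that disrupts the binding of eIF4E to eIF4G, or with the solvent DMSO. Doses are not used here. Each lysate gave total RNA and a pool of sucrose gradient fractions 9 to 13, in which an mRNA carries several ribosomes (polysome RNA). Every group held 3 libraries of each kind, 60 in all, and the labels do not say whether replicates were separate cultures or animals, so p-values measure the spread between these libraries.

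ATF4 is the main transcription factor of the integrated stress response. Kinases that sense stress, among them GCN2 (Eif2ak4), which binds uncharged tRNA, phosphorylate the initiation factor eIF2α. Most translation then falls, while ribosomes pass the inhibitory upstream open reading frames of the Atf4 mRNA and reach its coding region more often. ATF4 binds DNA as a dimer with other bZIP proteins, C/EBPβ and C/EBPγ among them, at C/EBP-ATF response elements near genes of amino acid synthesis, amino acid transport and tRNA charging. C/EBPγ lacks a strong activation domain and works mainly through its partners. C/EBPβ is made from 1 mRNA as long and short forms by choice of start codon, and it is best known from myeloid cells, liver and fat. The Atf5 mRNA carries upstream open reading frames like those of Atf4, and ATF5 is known for its part in the mitochondrial stress response.

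The 250 bases before the annotated start of each gene were taken from RefSeq (GRCm38.p6, a build other than the GRCm39 of the counts) because the mRNAs of the 4 genes moved together in several conditions. Both strands were searched for TGATGNAA (a C/EBP-ATF response element core), TGACGTCA (a full cAMP response element, CRE), TGACGC (the first bases of a CRE followed by C), TTGCNNAA (C/EBP), TATAAA and CCAAT. The 4 windows that held a match are shown 5′ to 3′ on the strand of the gene, with the matches in capitals. They are Atf4 (chr15:80254934-80255183, plus strand), the second of 2 annotated Atf5 starts (chr7:44815659-44815908, minus strand), Cebpb (chr2:167688665-167688914, plus strand) and Cebpg (chr7:35056567-35056816, minus strand).
Atf4: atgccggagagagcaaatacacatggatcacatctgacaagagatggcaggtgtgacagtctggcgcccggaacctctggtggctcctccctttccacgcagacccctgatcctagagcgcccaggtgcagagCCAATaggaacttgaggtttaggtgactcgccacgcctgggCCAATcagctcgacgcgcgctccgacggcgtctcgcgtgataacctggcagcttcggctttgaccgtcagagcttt
Atf5: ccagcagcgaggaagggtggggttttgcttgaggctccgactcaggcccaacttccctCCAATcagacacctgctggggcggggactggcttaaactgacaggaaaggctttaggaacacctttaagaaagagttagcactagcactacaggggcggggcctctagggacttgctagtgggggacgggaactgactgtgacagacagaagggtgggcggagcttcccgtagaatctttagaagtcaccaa
Cebpb: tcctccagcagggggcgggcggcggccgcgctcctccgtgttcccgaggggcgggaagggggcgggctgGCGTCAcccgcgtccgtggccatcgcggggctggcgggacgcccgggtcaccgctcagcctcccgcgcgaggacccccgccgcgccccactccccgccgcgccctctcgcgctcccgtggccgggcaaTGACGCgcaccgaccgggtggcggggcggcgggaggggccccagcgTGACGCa
Cebpg: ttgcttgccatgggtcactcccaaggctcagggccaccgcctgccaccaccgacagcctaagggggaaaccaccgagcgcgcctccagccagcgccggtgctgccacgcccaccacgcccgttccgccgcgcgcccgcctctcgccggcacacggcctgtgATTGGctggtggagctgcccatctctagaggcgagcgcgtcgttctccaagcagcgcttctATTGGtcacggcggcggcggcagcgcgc
The Cebpb window held 3 copies of TGACGC, which was present in 6.12% of the 32851 windows of that length. Atf4 and Cebpg had 2 CCAAT boxes each and the second Atf5 window had 1, a motif found in 33.8% of windows. None of the 5 windows of the 4 genes held TGATGNAA (3.45% of all windows), TGACGTCA (1.55%), TTGCNNAA (9.56%) or TATAAA (12.4%), and the window of the first Atf5 start held none of the 6 motifs. A match is a string of letters and not a measured site.

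The libraries held between 15144663 and 30637485 counts for nutrient total RNA, between 29917770 and 54272886 for nutrient polysome RNA, between 17506526 and 23099949 for total RNA of the drug experiment and between 17846266 and 24929556 for its polysome RNA. Levels are CPM, counts scaled to one fixed library size after TMM scaling. They are not divided by gene length, so they are compared between samples and not between genes. The labels call the nutrient libraries total RNA and the drug libraries polyA RNA, and no level was compared across the 2 experiments. All 5 CD8 and CD3 genes fixed as T cell markers were in the table, with summed levels of 683 to 3350 CPM. Cd4, Ms4a1, Pax5, Ncr1, Klrb1c and the 6 myeloid markers had no row in the table used here. RefSeq places Nup62 and Il4i1b over the Atf5 locus and Gm45095 over Cebpg, and the sources used here do not state whether reads were counted by strand, so counts of those genes could include reads of the overlapping ones.

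All 4 mRNAs rose in total RNA without BCAA, glucose, glutamine or methionine, and all but Atf5 rose without arginine. Cebpb changed by the most, with log2 fold changes of 0.90 to 2.15, and Atf4 by 0.37 to 0.77. In every deprivation, the 3 libraries of each of the 4 genes lay above the 3 Control libraries. How many of all genes separated in this way was not counted, here or in the comparisons below. The share of all 12642 tested genes that rose was 5.1% without arginine, 16.4% without BCAA, 21.8% without glucose, 20.4% without glutamine and 19.5% without methionine, and the shares that fell were 4.14%, 13.6%, 19%, 18.6% and 15.7% in the same order (edgeR's quasi-likelihood F test, Benjamini-Hochberg adjusted p under 0.05). The median log2 fold change of all genes lay between -0.01 and 0.02 in these 5 comparisons. In bulk libraries of this kind, a change in the number of cells that hold an mRNA and a change in its amount per cell cannot be told apart.

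Atf4, the central factor of the group, had 843, 813 and 845 CPM in NoArginine libraries, 992, 1000 and 959.9 CPM in NoBCAA libraries and 988, 962 and 982 CPM in NoGlucose libraries. The NoGlutamine libraries held 976, 969 and 959.5 CPM and the NoMethionine libraries 1011, 1172 and 1119 CPM, against 630.2, 645 and 664 CPM in Control libraries. No deprived library reached down to the Control range, and the NoArginine libraries were the lowest of the deprived ones. The log2 fold change was 0.37 ± 0.06 without arginine (SE of the fit, adjusted p = 0.000308) and 0.77 ± 0.06 without methionine (adjusted p = 1.98e-09), with 0.61, 0.60 and 0.58 without BCAA, glucose and glutamine. Of the 10 pairs of deprivations, 6 differed: arginine removal from each of the other 4, and methionine removal from glucose removal and from glutamine removal. The order of the means was NoMethionine, NoBCAA, NoGlucose, NoGlutamine, NoArginine and Control, and none of the neighbours from NoMethionine to NoGlutamine differed at the threshold.

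Atf5 separated the deprivations more widely. Its level was 13.0, 15.5 and 13.0 CPM in NoArginine libraries, 37.4, 33.8 and 31.8 CPM in NoBCAA libraries and 20.2, 20.0 and 20.2 CPM in NoGlucose libraries. It was 50.8, 39.1 and 39.1 CPM in NoGlutamine libraries and 30.4, 28.0 and 25.6 CPM in NoMethionine libraries, against 11.0, 12.9 and 11.3 CPM in Control libraries. Without arginine the 3 values stood just above the Control values, and the difference did not pass the test (log2 fold change 0.23 ± 0.11, adjusted p = 0.237). The log2 fold changes were 1.87 ± 0.11 without glutamine (adjusted p = 1.45e-11), 1.55 without BCAA, 1.26 without methionine and 0.78 without glucose. Of the 10 pairs of deprivations 9 differed, and the exception was BCAA against methionine removal.

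Cebpb had few counts in Control cells and rose by the largest ratio of the 4 in each deprivation. Its level was 10.5, 7.49 and 8.78 CPM in NoArginine libraries, 20.1, 22.7 and 18.4 CPM in NoBCAA libraries and 16.2, 13.3 and 15.0 CPM in NoGlucose libraries. The NoGlutamine libraries held 21.3, 17.9 and 21.0 CPM and the NoMethionine libraries 18.1, 27.3 and 18.9 CPM, against 4.16, 5.59 and 4.77 CPM in Control libraries. One NoMethionine library stood above the other two, and all of them were well above Control. The log2 fold change was 2.15 ± 0.16 without methionine (adjusted p = 1.36e-09), 2.07 without BCAA, 2.05 without glutamine, 1.62 without glucose and 0.90 ± 0.17 without arginine (adjusted p = 0.0018). Methionine, BCAA and glutamine removal did not differ from one another at the threshold, while the other 7 pairs did.

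Cebpg, the dimer partner, was highest without BCAA or glutamine. The NoBCAA libraries had 189, 184 and 187 CPM and the NoGlutamine libraries 182, 185 and 174 CPM. The remaining deprivations had 114, 111 and 116 CPM (NoArginine), 117, 118 and 118 CPM (NoGlucose) and 134, 128 and 128 CPM (NoMethionine), against 91.3, 92.1 and 94.4 CPM in Control libraries. The log2 fold changes were 1.01 ± 0.05 without BCAA (adjusted p = 5.49e-12), 0.96 without glutamine, 0.49 without methionine, 0.35 without glucose and 0.29 ± 0.05 without arginine (adjusted p = 0.00112). Of the 10 pairs 8 differed, all but BCAA against glutamine and arginine against glucose removal. Over the 4 genes together 30 of 40 pairs of deprivations differed in total RNA, where 26.7% of all gene and pair combinations did.

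**Figure D1:**
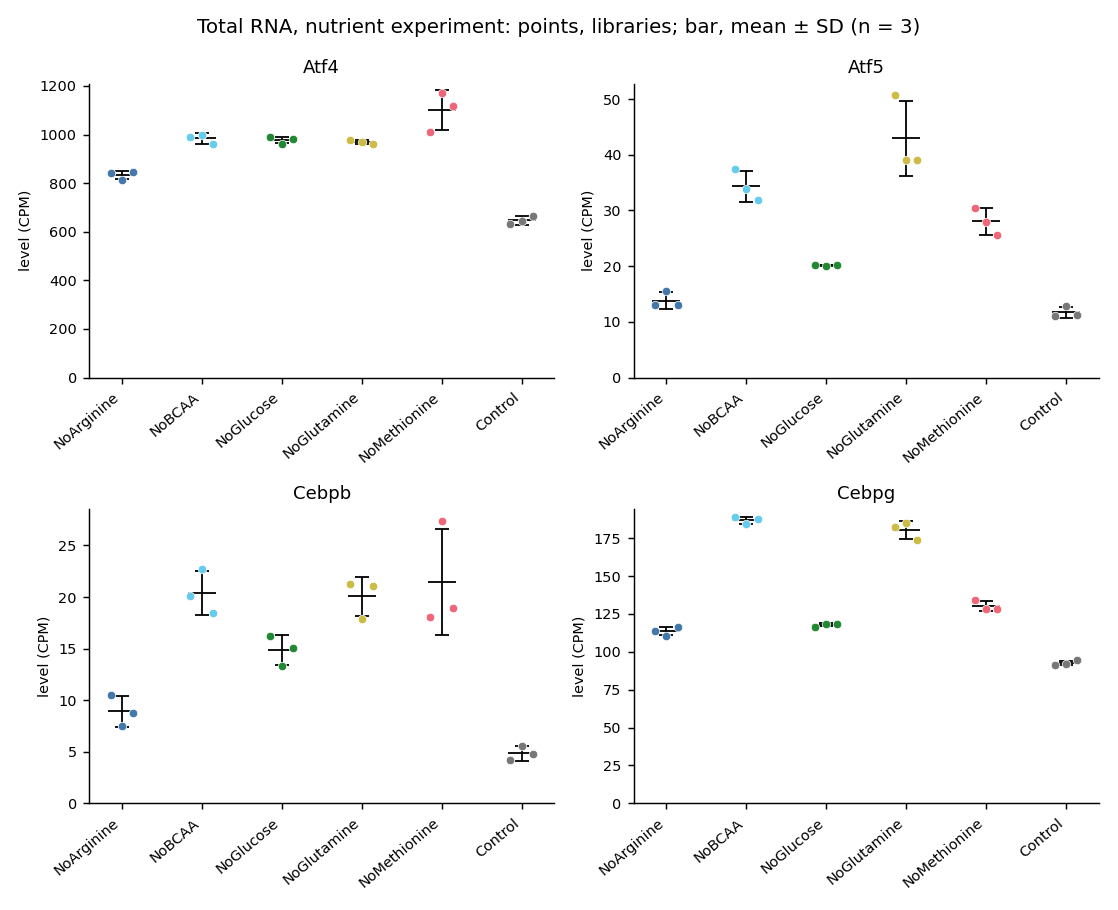
Level of each mRNA in total RNA (y axis, CPM from 0) in the nutrient experiment, by condition (x axis, deprivations left of Control); points are libraries and bars the mean ± SD of 3. All deprived libraries lie above the Control libraries in each panel, with Atf5 and Cebpb spread over the widest ratios and Cebpg highest in NoBCAA and NoGlutamine.

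Polysome RNA showed the same 4 mRNAs higher without BCAA, glucose, glutamine or methionine, and Atf4 and Cebpb higher without arginine. Of all 12417 genes tested 19% rose without arginine, 28.7% without BCAA, 29.6% without glucose, 32.2% without glutamine and 34.3% without methionine, and 21.6%, 27.4%, 29.4%, 32.4% and 34.7% fell. The order of the deprivations was not that of total RNA for Atf4, Cebpb or Cebpg. Atf4 had its highest value without glucose, and the log2 fold change of Cebpb was below that in total RNA in each deprivation. For Cebpg the NoMethionine mean was above the NoGlucose mean in total RNA and below it in polysome RNA, and both differences passed the test.

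Atf4 in polysome RNA had 933, 1014 and 1039.6 CPM in NoGlucose libraries and 924, 926 and 925 CPM in NoBCAA libraries. The NoMethionine libraries had 796, 806 and 761 CPM, the NoGlutamine libraries 741, 738 and 765 CPM and the NoArginine libraries 574, 647 and 699.6 CPM, against 403, 438 and 413 CPM in Control libraries. The groups did not overlap with Control. The log2 fold change was 1.25 ± 0.07 without glucose (adjusted p = 5.99e-11), 1.15 without BCAA, 0.91 without methionine, 0.84 without glutamine and 0.61 ± 0.07 without arginine (adjusted p = 3.62e-06). Of the 10 pairs 8 differed, all but glucose against BCAA removal and methionine against glutamine removal.

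Atf5 in polysome RNA had 52.6, 52.7 and 51.1 CPM in NoGlutamine libraries and 37.9, 50.7 and 47.2 CPM in NoBCAA libraries. It had 30.5, 28.5 and 34.6 CPM in NoMethionine, 27.8, 26.2 and 26.3 CPM in NoGlucose and 13.9, 12.3 and 15.6 CPM in NoArginine libraries, against 11.1, 10.6 and 12.9 CPM in Control libraries. The NoArginine libraries overlapped with Control. The log2 fold change was 2.18 ± 0.11 without glutamine (adjusted p = 6.42e-12) and 0.27 ± 0.11 without arginine (adjusted p = 0.0544). That arginine value passed the threshold with DESeq2 (0.31, adjusted p = 0.022), with RLE scaling (adjusted p = 0.0328) and with no filter on low counts (adjusted p = 0.043), and without Control replicate 3 (adjusted p = 0.0266) or NoArginine replicate 2 (adjusted p = 0.0274). The values for BCAA, methionine and glucose removal were 1.97, 1.44 and 1.22.

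Cebpb in polysome RNA had 15.2, 15.5 and 14.7 CPM in NoGlucose libraries, 15.9, 12.5 and 12.3 CPM in NoGlutamine libraries and 13.5, 15.3 and 11.8 CPM in NoBCAA libraries. The NoMethionine libraries had 12.0, 10.3 and 11.6 CPM and the NoArginine libraries 6.82, 6.62 and 7.65 CPM, against 5.13, 5.23 and 5.39 CPM in Control libraries. No group overlapped with Control. The log2 fold change was 1.53 ± 0.11 without glucose (adjusted p = 2.04e-09), 1.38 without glutamine, 1.37 without BCAA, 1.11 without methionine and 0.42 ± 0.12 without arginine (adjusted p = 0.00718). Methionine removal, which gave the highest mean in total RNA, was lower in polysome RNA than glucose and glutamine removal, and those 2 differences passed the test.

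Cebpg in polysome RNA had 89.9, 79.0 and 89.8 CPM in NoGlutamine libraries, 88.9, 79.8 and 85.8 CPM in NoBCAA libraries and 63.2, 70.9 and 68.3 CPM in NoGlucose libraries. The NoMethionine libraries had 52.7, 49.8 and 44.2 CPM and the NoArginine libraries 41.5, 45.7 and 53.3 CPM, against 38.0, 46.4 and 41.2 CPM in Control libraries. The last 2 deprivations overlapped with Control. The log2 fold change was 1.04 ± 0.10 without glutamine (adjusted p = 2.09e-08), 1.02 without BCAA, 0.69 without glucose, 0.23 ± 0.10 without methionine (adjusted p = 0.0453) and 0.16 ± 0.10 without arginine (adjusted p = 0.194). The methionine call was lost without Control replicate 1 (adjusted p = 0.181) or 3 (adjusted p = 0.102), without NoMethionine replicate 1 (adjusted p = 0.173) or 2 (adjusted p = 0.113), and in a fit of the 2 groups alone (adjusted p = 0.061). Over the 4 genes 30 of 40 pairs of deprivations differed in polysome RNA, beside 42.9% of all gene and pair combinations.

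**Figure D2:**
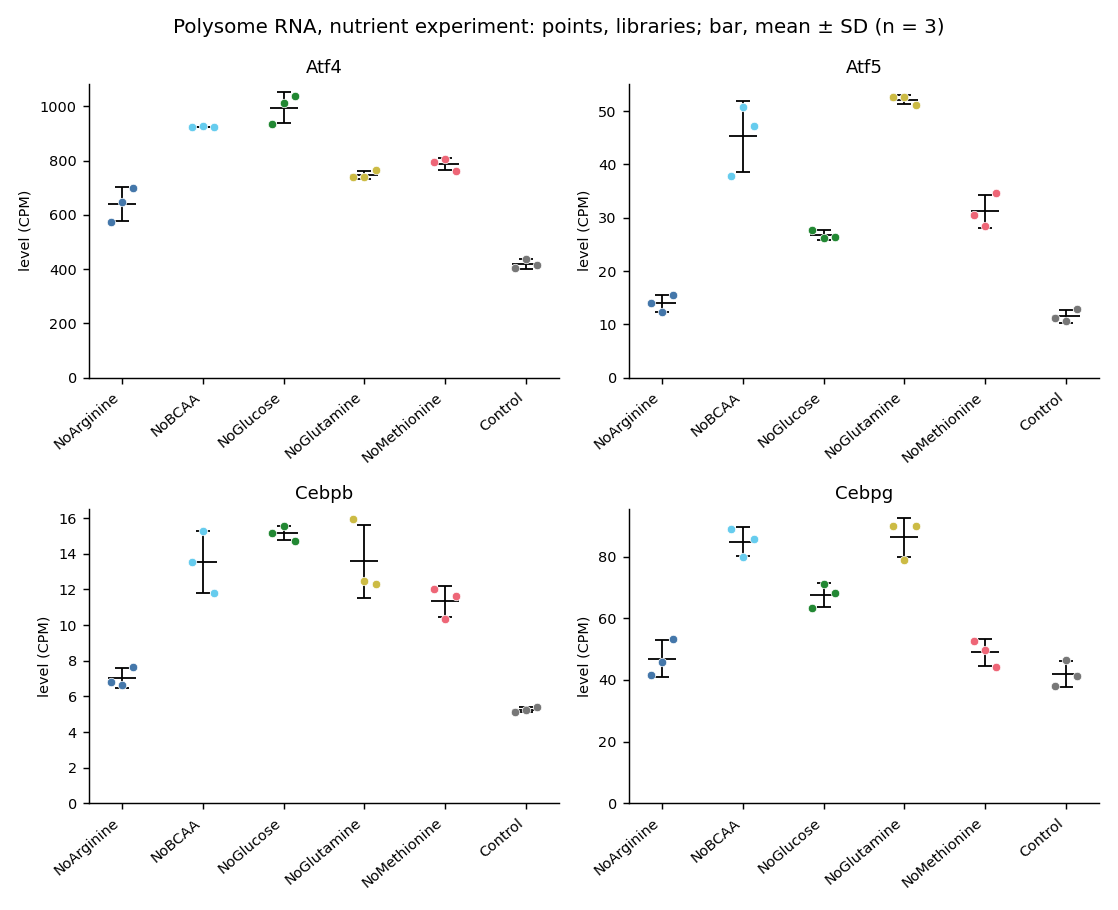
Level of each mRNA in polysome RNA (y axis, CPM from 0) in the nutrient experiment, by condition (x axis, deprivations left of Control); points are libraries and bars the mean ± SD of 3. Atf4 and Cebpb have their highest mean in NoGlucose, Atf5 and Cebpg in NoGlutamine, and the NoArginine points of Atf5 and Cebpg overlap with Control.

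The polysome over total ratio in the controls shows how the 4 mRNAs were distributed, relative to other mRNAs, after 3 h in Control medium or with DMSO. Cebpg was low in polysomes in both experiments, with a log2 ratio of -1.12 ± 0.08 in Control cells (adjusted p = 1.36e-13) and -1.23 ± 0.11 in DMSO cells (adjusted p = 6.76e-10). Atf4 was low as well, at -0.60 ± 0.07 in Control cells (adjusted p = 1.18e-09) and -0.42 ± 0.10 in DMSO cells (adjusted p = 0.000533). By the same test 28% of all genes had a log2 ratio below 0 in Control cells, and in DMSO cells 30.9% lay below 0 and 28.4% above it. The median ratio of all genes in Control cells moved with the scaling, from 0.09 to -0.05 when entries that share sequence with ribosomal RNA were left out of it. Relative to that median, Cebpg lay at -1.21 and Atf4 at -0.70. Cebpb and Atf5 passed the test in DMSO cells only, at 0.90 ± 0.16 (adjusted p = 2.8e-05) and 0.46 ± 0.14 (adjusted p = 0.00504). The Control values were 0.14 ± 0.15 for Cebpb (adjusted p = 0.422) and 0.00 ± 0.12 for Atf5 (adjusted p = 0.998), and the difference between the experiments was not tested. The Atf5 call in DMSO cells was lost without DMSO replicate 1 (adjusted p = 0.0574).

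The changes of the ratio that passed were increases for Atf4 and decreases for Cebpb and, without methionine, for Cebpg. The deprivation in which both Atf4 and Cebpb passed was that of BCAA. The change of the polysome over total ratio in a condition against that in its control is called translational efficiency (TE) here. TE of Atf4 rose without glucose and without BCAA, and TE of Cebpb fell without methionine, glutamine and BCAA. Cebpg fell without methionine, and Atf5 passed the test in no deprivation. Of the 13072 genes tested, TE rose for 6.72% without arginine, 8.03% without BCAA, 8.84% without glucose, 9.98% without glutamine and 19.2% without methionine. It fell for 9.81%, 18.9%, 16.9%, 25.2% and 29.9% in the same order. Without arginine 0 of the 4 genes passed by edgeR's quasi-likelihood F test, where 16.5% of all genes did in either direction, that is 2162 genes, or 526 without NoArginine replicate 1. At an unadjusted p under 0.05, 2 of the 4 passed without arginine, and DESeq2 called 1, Atf4.

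For Atf4 the ratio of polysome to total CPM per lysate was 0.888, 1.01 and 1.03 in NoGlucose, 0.861, 0.888 and 0.915 in NoBCAA and 0.681, 0.805 and 0.838 in NoArginine lysates. It was 0.696, 0.702 and 0.743 in NoGlutamine and 0.750, 0.663 and 0.648 in NoMethionine lysates, against 0.637, 0.703 and 0.636 in Control lysates. The NoGlucose and NoBCAA lysates lay above Control, while the other groups overlapped with it. The log2 TE change was 0.57 ± 0.09 without glucose (adjusted p = 2.46e-05), 0.43 ± 0.09 without BCAA (adjusted p = 8e-04), 0.23 ± 0.09 without arginine (adjusted p = 0.0777), 0.12 without glutamine (adjusted p = 0.353) and 0.06 without methionine (adjusted p = 0.654). Glucose removal exceeded arginine, glutamine and methionine removal, and BCAA removal exceeded methionine removal, with the other 6 of 10 pairs short of the threshold. The arginine value passed without NoArginine replicate 1 (adjusted p = 0.0496), and the glutamine value passed with RLE scaling (0.25, adjusted p = 0.0414).

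For Cebpb the ratio was 0.632, 0.364 and 0.586 in NoMethionine, 0.688, 0.645 and 0.546 in NoGlutamine and 0.623, 0.644 and 0.609 in NoBCAA lysates. It was 0.648, 0.893 and 0.881 in NoArginine and 0.879, 1.12 and 0.958 in NoGlucose lysates, against 1.23, 0.970 and 1.16 in Control lysates. The first 4 of these groups lay wholly below Control, and NoGlucose overlapped with it. The log2 TE change was -1.14 ± 0.20 without methionine (adjusted p = 1.97e-05), -0.82 ± 0.20 without glutamine (adjusted p = 0.00178), -0.81 ± 0.20 without BCAA (adjusted p = 0.00311), -0.50 ± 0.21 without arginine (adjusted p = 0.102) and -0.18 ± 0.20 without glucose (adjusted p = 0.568). Glucose removal differed from BCAA, glutamine and methionine removal, and arginine from methionine removal. Cebpb thus passed as higher than Control in both kinds of RNA in each deprivation, with the larger fold change in total RNA.

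Cebpg had ratios of 0.375, 0.374 and 0.328 in NoMethionine lysates, against 0.415, 0.522 and 0.446 in Control lysates, with no overlap. Its log2 TE change there was -0.36 ± 0.11 (adjusted p = 0.00907). This call was lost without Control replicate 2 (adjusted p = 0.0851) or NoMethionine replicate 3 (adjusted p = 0.0519), in a fit of the 2 groups alone (adjusted p = 0.132) and with TMM factors computed without entries that share sequence with ribosomal RNA (adjusted p = 0.0747). In the other deprivations its values ran from -0.15 to 0.25, and those of Atf5 ran from 0.03 to 0.35 over all 5, with adjusted p from 0.0987 to 0.924. Without glucose the Atf5 ratios were 1.29, 1.26 and 1.27, against 1.01, 0.849 and 1.17 in Control lysates, and did not overlap (log2 TE change 0.35 ± 0.16, adjusted p = 0.111). This value passed with RLE scaling (adjusted p = 0.0458), and so did that of Cebpg without glucose (0.34, adjusted p = 0.0262) and without Control replicate 2 (adjusted p = 0.038). The Atf5 value without BCAA (0.32, adjusted p = 0.138) passed without NoBCAA replicate 1 (0.51, adjusted p = 0.023) and with TMM factors computed without the ribosomal RNA entries (0.45, adjusted p = 0.0332). Over the 4 genes 10 of 40 pairs of deprivations differed in TE, beside 11.1% of all gene and pair combinations. Of these, 4 were pairs of Atf4, 4 of Cebpb, 2 of Cebpg and 0 of Atf5.

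The TE values move with the scaling of the libraries. The median log2 TE change of all genes was -0.12 without BCAA, -0.08 without glucose, -0.15 without glutamine and -0.14 without methionine. With TMM factors computed without the ribosomal RNA entries those medians were 0.01, 0.05, 0.01 and -0.01. Relative to the median of all genes, Atf4 TE changed by 0.64 without glucose, 0.55 without BCAA, 0.27 without arginine, 0.26 without glutamine and 0.19 without methionine. For Cebpb the values relative to the median were -1.0 without methionine, -0.67 without glutamine, -0.69 without BCAA, -0.46 without arginine and -0.10 without glucose. The share of TE calls that were increases was 29.8% without BCAA, 34.3% without glucose, 28.4% without glutamine and 39.2% without methionine. Without the ribosomal RNA entries in the scaling it was 60.6%, 60.1%, 54.6% and 50.6%, and with RLE scaling 43%, 51%, 49.5% and 46.3%. Without arginine it was 40.7%, and 61% without the ribosomal RNA entries.

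**Figure D3:**
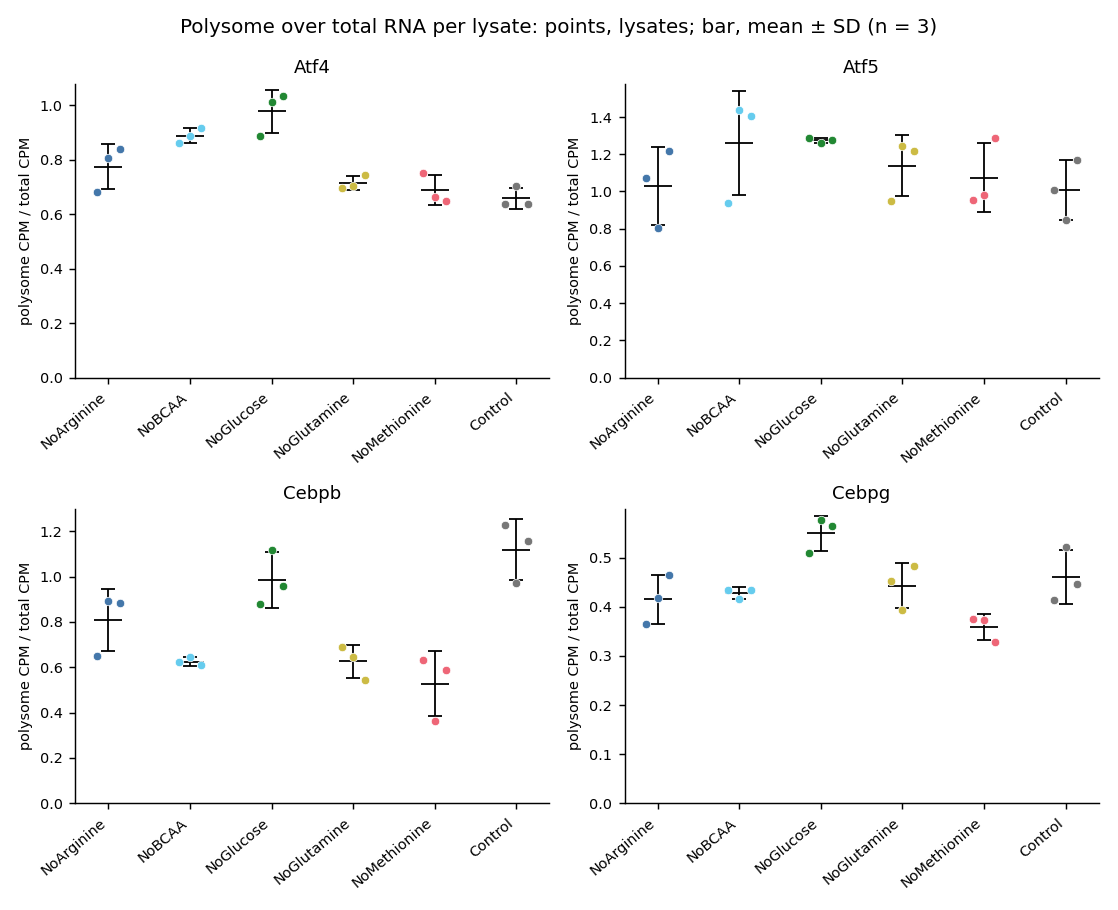
Ratio of polysome CPM to total CPM of each lysate (y axis, from 0) in the nutrient experiment, by condition (x axis, deprivations left of Control); points are lysates and bars the mean ± SD of 3. Atf4 lies above Control in NoGlucose and NoBCAA, Cebpb lies below Control in all deprivations but NoGlucose, and Cebpg is lowest in NoMethionine.

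In the drug experiment, halofuginone raised Atf4 and Cebpb in total RNA, where 0.239% of the 12535 genes tested did. Atf4 had 784, 773 and 794 CPM with halofuginone, against 553, 557 and 563 CPM with DMSO. Cebpb had 66.4, 67.8 and 73.1 CPM with halofuginone, against 46.5, 39.8 and 46.6 CPM with DMSO. Neither pair of groups overlapped, and the log2 fold changes were 0.49 ± 0.06 for Atf4 (adjusted p = 0.00061) and 0.64 ± 0.10 for Cebpb (adjusted p = 0.00939). Cebpg had 123, 123 and 108 CPM with halofuginone, against 87.1, 99.6 and 77.7 CPM with DMSO, a log2 fold change of 0.42 ± 0.09 that did not pass (adjusted p = 0.0819). It passed with DESeq2 (adjusted p = 0.0082) and without DMSO replicate 3 (adjusted p = 0.0232). Atf5 differed by 0.14 ± 0.09 (adjusted p = 0.692), with 38.1, 41.1 and 39.1 CPM with halofuginone, against 35.1, 34.8 and 37.7 CPM with DMSO. The Cebpb call was lost without halofuginone replicate 3 (adjusted p = 0.0608) or 4 (adjusted p = 0.0559).

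Torin1 lowered all 4 mRNAs in total RNA, where 13.3% of all genes fell. Cebpb had 21.1, 16.4 and 21.1 CPM with Torin1, against 46.5, 39.8 and 46.6 CPM with DMSO. Atf4 had 389.7, 376 and 352 CPM with Torin1, against 553, 557 and 563 CPM with DMSO. Atf5 had 21.8, 21.5 and 23.7 CPM with Torin1, against 35.1, 34.8 and 37.7 CPM with DMSO. These 3 genes did not overlap between the groups. Cebpg had 72.4, 72.7 and 67.8 CPM with Torin1, against 87.1, 99.6 and 77.7 CPM with DMSO. The Torin1 libraries lay below all DMSO libraries for Cebpg as well. The log2 fold changes were -1.18 ± 0.11 for Cebpb (adjusted p = 1.1e-06), -0.68 for Atf5, -0.58 for Atf4 and -0.31 ± 0.09 for Cebpg (adjusted p = 0.0207). The Cebpg call was lost without DMSO replicate 3 (adjusted p = 0.0974) or Torin1 replicate 4 (adjusted p = 0.0589).

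4EGI-1 split the group. Atf4, Cebpb and Cebpg rose and Atf5 fell in total RNA, where 14.1% of all genes rose and 12.3% fell. Cebpg had 134, 133 and 114 CPM with 4EGI-1, against 87.1, 99.6 and 77.7 CPM with DMSO (log2 fold change 0.53 ± 0.09, adjusted p = 0.000524). Cebpb had 52.7, 58.5 and 67.4 CPM with 4EGI-1, against 46.5, 39.8 and 46.6 CPM with DMSO (0.43 ± 0.11, adjusted p = 0.00631). Atf5 had 21.6, 28.0 and 26.3 CPM with 4EGI-1, against 35.1, 34.8 and 37.7 CPM with DMSO (-0.50 ± 0.09, adjusted p = 0.000851). None of these groups overlapped. Atf4, at 621, 640.0 and 639.7 CPM with 4EGI-1 against 553, 557 and 563 CPM with DMSO, rose by 0.18 ± 0.06 (adjusted p = 0.0324). That call was lost without 4EGI-1 replicate 3 or 4 or any 1 of the 3 DMSO replicates (adjusted p from 0.075 to 0.109), with no filter on low counts (adjusted p = 0.0567) and in a fit of the 2 groups alone (adjusted p = 0.0811).

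In polysome RNA of the drug experiment the SE of the log2 fold changes was 0.13 to 0.19, against 0.06 to 0.11 in total RNA. With halofuginone 0 of the 4 genes passed by edgeR's quasi-likelihood F test, and 0.0491% of the 12223 genes tested did in either direction. At an unadjusted p under 0.05, 2 of the 4 passed, Atf4 and Cebpg, and DESeq2 called 0. The log2 fold changes with halofuginone were 0.37 ± 0.13 for Atf4 (adjusted p = 0.309), 0.34 ± 0.13 for Cebpg (adjusted p = 0.349), 0.32 ± 0.19 for Cebpb (adjusted p = 0.484) and 0.03 ± 0.16 for Atf5 (adjusted p = 0.95). Atf4 had 529.8, 416 and 548 CPM with halofuginone, against 360.0, 387 and 407 CPM with DMSO, with no overlap. Cebpg had 50.6, 42.9 and 39.2 CPM with halofuginone, against 32.7, 35.6 and 36.4 CPM with DMSO, again without overlap. Cebpb had 110.4, 64.6 and 111 CPM with halofuginone, against 70.0, 87.8 and 71.1 CPM with DMSO, with 1 halofuginone library below all of DMSO.

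Torin1 lowered Cebpb, Atf5 and Atf4 in polysome RNA, where 8.3% of all genes fell. Cebpb had 36.4, 27.9 and 37.7 CPM with Torin1, against 70.0, 87.8 and 71.1 CPM with DMSO (log2 fold change -1.17 ± 0.19, adjusted p = 5e-04). Atf4 had 277, 242 and 298 CPM with Torin1, against 360.0, 387 and 407 CPM with DMSO (-0.50 ± 0.13, adjusted p = 0.0152), and these groups did not overlap. Atf5 had 30.2, 23.9 and 29.9 CPM with Torin1, against 48.2, 40.8 and 47.6 CPM with DMSO (-0.70 ± 0.17, adjusted p = 0.0078). Cebpg had 28.2, 27.6 and 29.3 CPM with Torin1, against 32.7, 35.6 and 36.4 CPM with DMSO. Its Torin1 libraries lay below all DMSO libraries, but the change did not pass (-0.30 ± 0.13, adjusted p = 0.128). The Atf4 call was lost without Torin1 replicate 3 (adjusted p = 0.0871), whose polysome library carries an R of unstated meaning in its name, and without DMSO replicate 4 (adjusted p = 0.054).

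With 4EGI-1, Cebpg and Atf4 rose in polysome RNA, where 14.1% of all genes did. Cebpg had 52.5, 47.2 and 42.4 CPM with 4EGI-1, against 32.7, 35.6 and 36.4 CPM with DMSO (log2 fold change 0.44 ± 0.13, adjusted p = 0.0191). Atf4 had 521, 507 and 495 CPM with 4EGI-1, against 360.0, 387 and 407 CPM with DMSO (0.40 ± 0.13, adjusted p = 0.0306). Neither gene's groups overlapped. Atf5 was at -0.44 ± 0.16 (adjusted p = 0.0548) and Cebpb at 0.12 ± 0.19 (adjusted p = 0.674). The Atf4 and Cebpg calls were lost without 4EGI-1 replicate 2, the other library with an R in its name (adjusted p = 0.0679 for Atf4 and 0.0778 for Cebpg), and without DMSO replicate 1 (adjusted p = 0.0733 and 0.0533). The Atf4 call was lost in addition without 4EGI-1 replicate 3 (adjusted p = 0.0665) or 4 (adjusted p = 0.0545). Without 4EGI-1 replicate 3 the Atf5 decrease passed (-0.58, adjusted p = 0.0292).

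No TE change of the 4 genes passed with any drug by edgeR's quasi-likelihood F test. Of all 12745 genes, 0% passed with halofuginone, 1.79% with Torin1 and 0.565% with 4EGI-1. The log2 TE changes ran from -0.31 to 0.28 over the 12 combinations of gene and drug, with adjusted p from 0.324 to 0.969. At an unadjusted p under 0.05, 0 of the 4 genes passed with halofuginone, 0 with Torin1 and 0 with 4EGI-1, and DESeq2 called 0 with each. The highest value was that of Atf4 with 4EGI-1 (0.28 ± 0.14, adjusted p = 0.324), for which the ratios were 0.952, 0.891 and 0.865 with 4EGI-1, against 0.711, 0.751 and 0.772 with DMSO, without overlap. For Cebpb, whose TE fell in 3 deprivations, the values were -0.31 ± 0.23 with halofuginone, 0.06 ± 0.23 with Torin1 and -0.25 ± 0.23 with 4EGI-1.

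Set against each other, the drugs differed in 9 of 12 combinations of gene and drug pair in total RNA, 7 of 12 in polysome RNA and 0 of 12 in TE. The shares of all gene and pair combinations that differed were 26.9%, 13.6% and 0.298%. Halofuginone and Torin1 differed for each of the 4 genes in total RNA and in polysome RNA. Halofuginone and 4EGI-1 differed in total RNA for Atf4 and Atf5, and in polysome RNA for none of the 4. The 3 drug comparisons share their DMSO libraries and the 5 deprivation comparisons share their Control libraries, so values of different conditions against a control are not independent of one another.

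**Figure D4:**
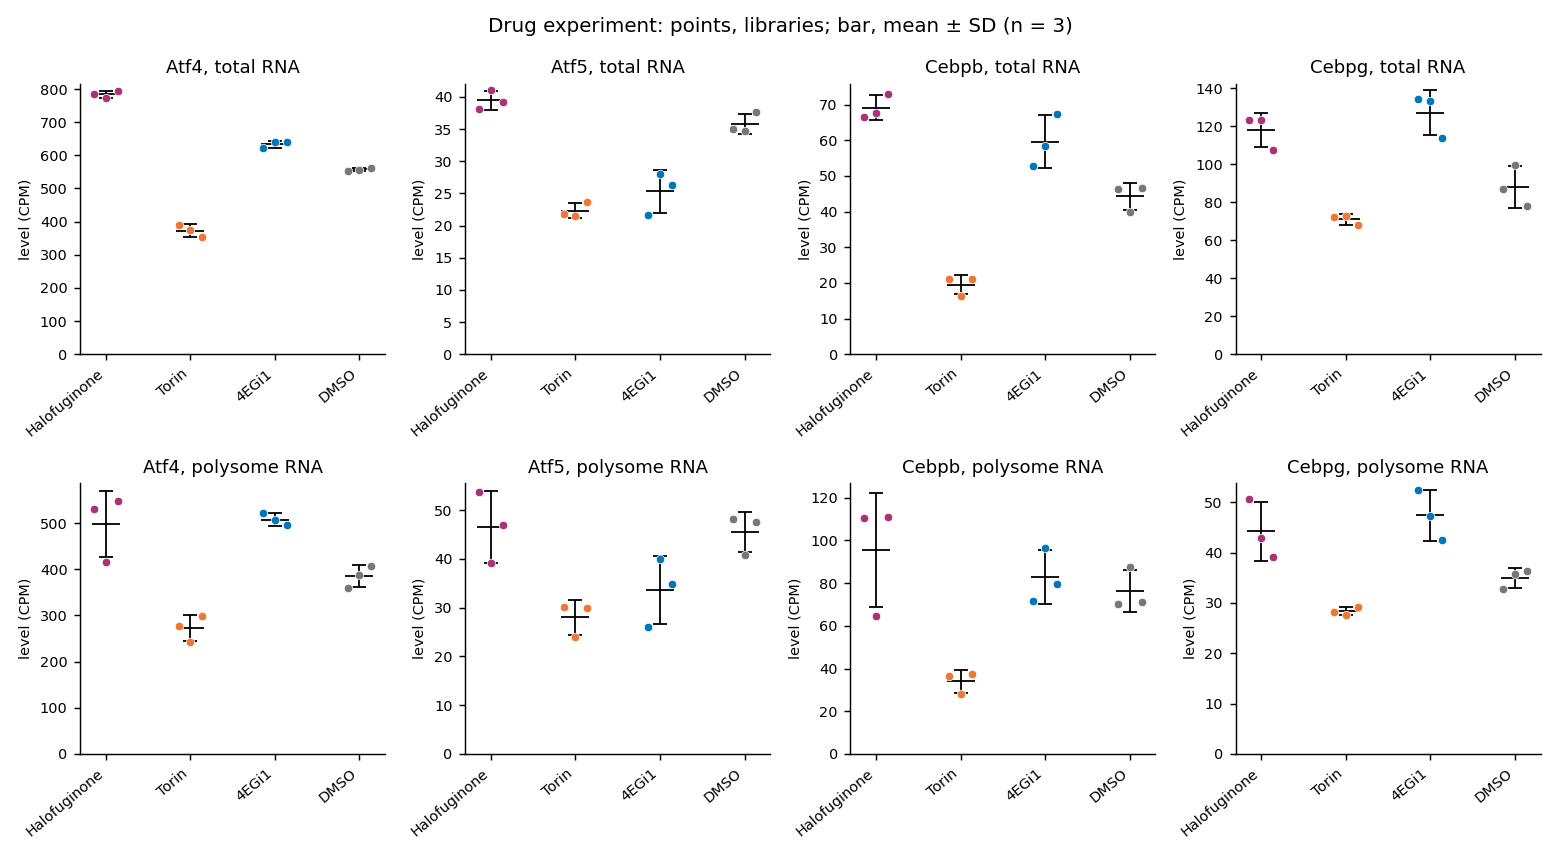
Level of each mRNA (y axis, CPM from 0) in total RNA (top row) and polysome RNA (bottom row) of the drug experiment, by treatment (x axis, drugs left of DMSO); points are libraries and bars the mean ± SD of 3. Torin1 libraries lie below DMSO in all 8 panels, and Atf5 is the only one of the 4 mRNAs that is lower with 4EGI-1.

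**Figure D5:**
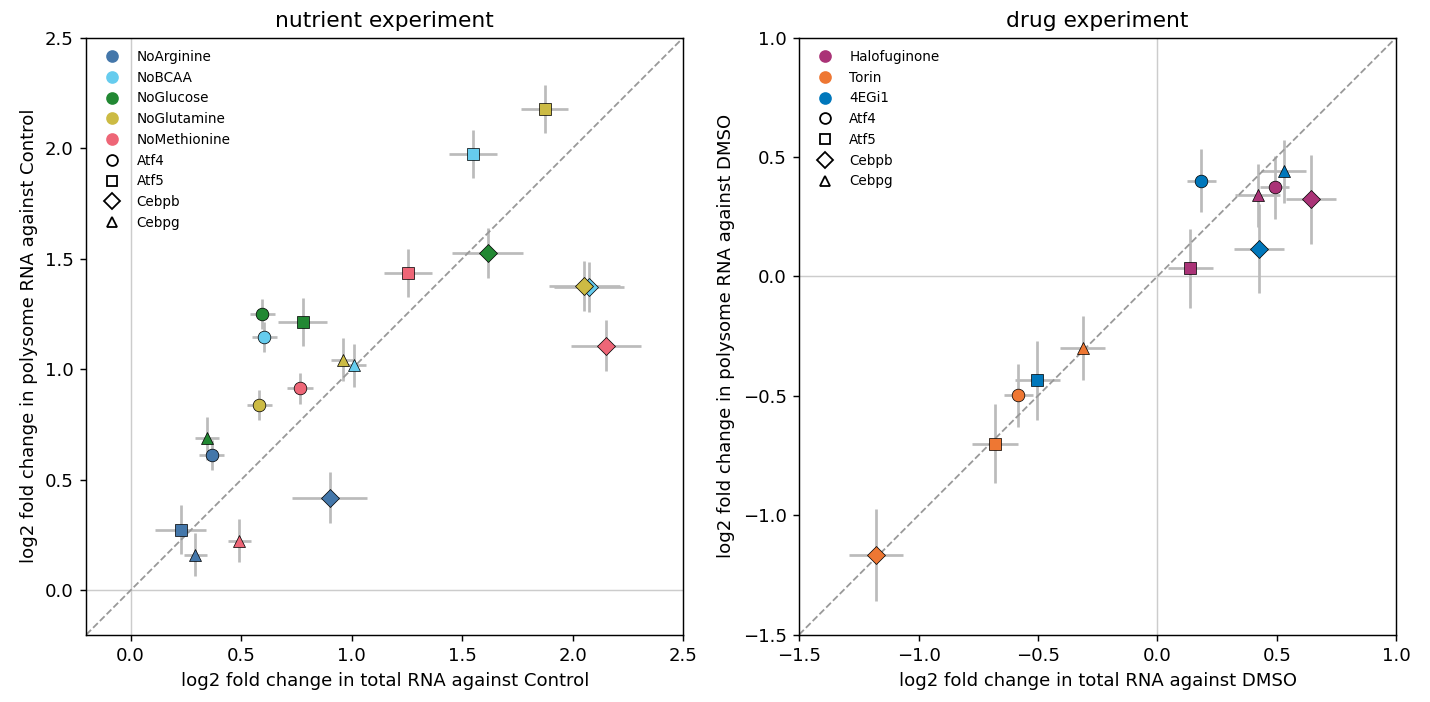
Log2 fold change in total RNA (x axis) and in polysome RNA (y axis) against Control (left panel) or DMSO (right panel); colours are conditions, shapes are genes, bars are SE of the fit and the dashed line marks equal change. Cebpb lies below the line in all 5 deprivations, and Atf4 lies above it; in the drug panel the error bars are wide beside the distances from the line.

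A list of 32 known ATF4 targets was followed as well, of which 30 were measured. The list was chosen with earlier results of these data known, and binding of the factors to these genes was not tested. In total RNA 19 of the 30 rose without arginine, 29 without BCAA, 28 without glucose, 29 without glutamine and 29 without methionine, and 0 fell in any of them. Among all genes 5.1%, 16.4%, 21.8%, 20.4% and 19.5% rose in the same order, and 4.14% to 19% fell. The median log2 fold changes of the list were 0.33, 1.03, 0.67, 0.99 and 0.87, beside the medians near 0 of all genes given above. In polysome RNA 26, 29, 28, 28 and 28 rose and 1, 0, 0, 0 and 0 fell, with medians of 0.51, 1.36, 0.86, 1.52 and 1.16. There 19%, 28.7%, 29.6%, 32.2% and 34.3% of all genes rose, and 21.6% to 34.7% fell. Ddit3 encodes the C/EBP family member CHOP. Its log2 fold changes in total RNA were 1.24 without arginine, 3.27 without BCAA, 2.89 without glucose, 3.55 without glutamine and 3.02 without methionine. Without glutamine Nupr1, a stress-induced chromatin protein, stood beside Ddit3 at 3.55. Trib3, a pseudokinase that restrains this response, rose by 2.55 to 3.06 in the 4 deprivations other than arginine. With halofuginone 9 of the 30 rose in total RNA and 0 fell, where 0.239% and 0.0399% of all genes did. The largest change was in Chac1, an enzyme that degrades glutathione (1.77 ± 0.14, adjusted p = 4.48e-06), with Ddit3 at 0.85. With Torin1 1 rose in total RNA and 18 fell, Chac1 (-1.77), Trib3 (-1.48) and Ddit4, an inhibitor of mTOR (-1.25), among them. Among all genes 13.3% rose and 13.3% fell with Torin1. Ddit3 was at -0.13 (adjusted p = 0.31). With 4EGI-1 9 rose in total RNA and 2 fell, where 14.1% of all genes rose and 12.3% fell. The 2 that fell with 4EGI-1 are not above that share.

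In TE genes of the target list were called in both directions. Of the 30, 9 rose and 1 fell without arginine, 6 and 4 without BCAA, 6 and 1 without glucose, 6 and 7 without glutamine, and 15 and 11 without methionine. Of all genes 6.72%, 8.03%, 8.84%, 9.98% and 19.2% rose in the same order, and 9.81%, 18.9%, 16.9%, 25.2% and 29.9% fell. Increases were more frequent in the list than among all genes in each deprivation. Decreases in the list were no more frequent than among all genes in the 4 deprivations other than methionine. The 11 that fell without methionine stand beside 29.9%. Slc3a2, the heavy chain of several amino acid transporters, rose in TE in all 5 deprivations (0.61 to 1.00), and Atf3, a bZIP repressor of this response, fell without glutamine (-0.62) and methionine (-1.06). Ddit3 TE rose without BCAA (0.43, adjusted p = 0.00479) and glucose (0.31, adjusted p = 0.0363). Its values elsewhere were 0.26 without arginine, 0.23 without glutamine and -0.06 without methionine, none of which passed.

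Of 9 other mRNAs (Ddit3 again among them) with upstream open reading frames that are reported to stay translated when eIF2α is phosphorylated, 8 were measured. Their TE rose for 1 without arginine, 3 without BCAA, 4 without glucose, 2 without glutamine and 4 without methionine, and it fell for 0, 0, 0, 0 and 2. With 8 genes, 1 is near the 6.72% of all genes that rose without arginine, and 2 near the 29.9% that fell without methionine. Eprs1, a tRNA synthetase, rose in each of them, from 0.78 without arginine to 1.28 without methionine. Ppp1r15a, which directs dephosphorylation of eIF2α, rose without BCAA (0.29), glucose (0.35) and methionine (0.32). Among the 7 genes of the eIF2α kinase arm, no TE change passed without arginine, BCAA or glucose. Of all genes 16.5%, 26.9% and 25.8% passed there in either direction. Without glutamine 1 rose, Impact, an inhibitor of GCN2 activation (0.33), where 9.98% of all genes did. Without methionine 4 rose and 1 fell, where 19.2% and 29.9% of all genes did. Impact (0.48), Gcn1 (0.47) and Eif2ak4 (0.44) were among those that rose, and Eif2s1, which encodes eIF2α, fell (-0.43). With 7 genes, 1 is near the 9.98% that rose without glutamine and not above the 29.9% that fell without methionine. In total RNA 1 of the 7 rose and 1 fell without arginine, 1 and 2 without BCAA, and 3 and 4 without glucose. It was 1 and 1 without glutamine, and 1 and 2 without methionine. Of all genes 5.1% to 21.8% rose and 4.14% to 19% fell in these comparisons. The mRNA of Eif2ak4 itself fell in total RNA in all 5 deprivations, by 0.27 to 0.53 on the log2 scale. That of its activator Gcn1 rose in the 4 deprivations other than arginine (0.32 to 0.88).

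Of the other C/EBP family genes listed, Cebpa, Cebpd and Cebpe had no row in the table used here, and Ddit3 had one. Among 39 other bZIP genes 32 were measured in the nutrient experiment. In total RNA 5 rose and 0 fell without arginine, 18 and 2 without BCAA, 16 and 5 without glucose, 16 and 1 without glutamine, and 18 and 3 without methionine, with medians of 0.09, 0.38, 0.31, 0.23 and 0.30. Among all genes 5.1%, 16.4%, 21.8%, 20.4% and 19.5% rose in the same order, and 4.14%, 13.6%, 19%, 18.6% and 15.7% fell. Increases were more frequent in this list than among all genes in each deprivation, and decreases were no more frequent. Fos, an AP-1 subunit, rose in all 5 (1.02 to 2.92), and Jdp2, a repressor that binds the same sites, rose without BCAA (1.91), glucose (2.40), glutamine (1.93) and methionine (1.48). With Torin1, Jdp2 (-1.49), Fosl1 (-1.12) and Jund (-0.78) were among the 8 of 33 measured that fell, and 5 rose, where 13.3% of all genes fell and 13.3% rose.

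The genes whose pattern was most like each of the 4 were found by Pearson's r of log2 CPM over the 18 libraries of the nutrient experiment, as a description, since the libraries share 6 conditions. In total RNA, among 7956 genes, they were Slc30a1 (0.964), 2700062C07Rik (0.961) and Cebpb (0.952) for Atf4, and Ptpn7 (0.982), Gpt2 (0.98) and Cars1 (0.969) for Atf5. For Cebpb they were Pnrc2 (0.967), Ppp1r15a (0.966) and D16Ertd472e (0.964), and for Cebpg Ttc9c (0.977), Lpxn (0.976) and Grap (0.969). Atf4 was thus nearest to Cebpb within the group, and less like Atf5 (0.749) and Cebpg (0.648), while Atf5 and Cebpg stood at 0.923. In polysome RNA, among 7804 genes, they were Fhl2 (0.981), Zfp868 (0.962) and Lrrc8d (0.94) for Atf4, Gpt2 (0.978), Zbtb7b (0.969) and Nsl1 (0.966) for Atf5, Trib3 (0.973), Bach1 (0.958) and Akap8l (0.956) for Cebpb, and Rnf114 (0.981), Arl5b (0.967) and Gas5 (0.959) for Cebpg. 

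Zbtb7b, which was among the genes most like Atf5 in polysome RNA, was also on the list of CD4 T cell markers. Of the 3 genes on that list Cd4 had no row in the table used here, and Foxp3 lay between 0 and 0.109 CPM in the nutrient experiment. The summed level of Zbtb7b and Foxp3, in CPM of the plain library total, differed between conditions. In total RNA it was 10.4 to 11.4 in NoArginine, 18.3 to 21.7 in NoBCAA, 18.8 to 21.5 in NoGlucose, 21.1 to 24.9 in NoGlutamine and 15.6 to 18.6 in NoMethionine libraries, against 10.6 to 12.6 in Control libraries. In polysome RNA it was 7.37 to 8.38 in NoArginine, 16.3 to 20.8 in NoBCAA, 15.2 to 17.5 in NoGlucose, 21.5 to 22.1 in NoGlutamine and 14.1 to 17.2 in NoMethionine libraries, against 6.99 to 9.28 in Control libraries. Only NoArginine overlapped with Control. In total RNA of the drug experiment it was 14.4 to 16.3 with halofuginone, 6.85 to 10.6 with Torin1 and 18.5 to 19.9 with 4EGI-1, against 11.7 to 13.1 with DMSO. In its polysome RNA it was 12.4 to 13.4 with halofuginone, 7.08 to 10.9 with Torin1 and 14.8 to 19.6 with 4EGI-1, against 8.94 to 13.0 with DMSO. With Torin1 the markers in this sum went opposite ways in total RNA. Zbtb7b was at 5.92 to 7.87 with Torin1, against 11.5 to 12.9 with DMSO. Foxp3 was at 0.931 to 2.76 with Torin1, against 0.0492 to 0.248 with DMSO. The part of this marker level in the results on Atf4, Atf5, Cebpb and Cebpg was not tested.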

How the data were processed

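RNA of each lysate was measured as total RNA and as pooled polysome fractions, per the labels. The values used were the whole-number counts per gene that the authors deposited in 1 table of 14695 genes. The submitters' processing notes name Trimmomatic, FastQC, MultiQC, STAR, HTSeq, edgeR and build GRCm39, with no roles or versions. HTSeq's strand setting is not given in the sources used here. Monosome libraries were not analysed here.

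Counts were fitted per experiment over all groups with edgeR 4.0.16 (R 4.3.3): filterByExpr with a minimum count of 10, TMM scaling, quasi-likelihood F test, Benjamini-Hochberg adjustment over all genes of a contrast, threshold 0.05. An SE is the absolute log2 change over the square root of F. Translational efficiency was the interaction term of a joint fit of both kinds of library. In that fit the total and polysome library of 1 lysate have deviations from their group means that correlated by -0.0315 to 0.198 (mean 0.0552, nutrient) and -0.0226 to 0.308 (mean 0.107, drug). The pairing comes from the labels' protocol, which splits each lysate. With the lysate as a replicate block no translational efficiency call of the 4 genes changed, as for Atf4 without glucose (0.57). Alternatives were RLE scaling, TMM without ribosomal RNA entries, no filter, 2-group fits, DESeq2 1.42.0, a block and leaving out each replicate. Scripts were tested on simulated data.

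The 4 genes and all gene lists were chosen with earlier results of these data known. Named list genes are up to 4 with the largest change past the threshold per list and comparison, plus Ddit3. The genes named for likeness are the 3 with the highest Pearson's r of log2 CPM (prior count 2), among genes with a mean of 10 CPM or more.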

Additional observations from a re-analysis of the deposited data

How the results depend on the processing

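The total RNA increases of Atf4, Cebpb and Cebpg in all 5 deprivations, and of Atf5 in 4, kept their direction and their call under every alternative run. So did the TE increase of Atf4 without BCAA and glucose and the TE decrease of Cebpb without BCAA, glutamine and methionine. The number of the 4 genes with a called TE change depended on the setting. Without arginine it was 0, and 1 with DESeq2 or with TMM without ribosomal RNA entries. Without BCAA it was 2, and 3 with TMM without ribosomal RNA entries. Without glucose it was 1, and 3 with DESeq2, RLE or TMM without ribosomal RNA entries and 2 in a fit of the 2 groups. Without glutamine it was 1, and 2 under the same 3 scalings. Without methionine it was 2, and 1 in a fit of the 2 groups or with TMM without ribosomal RNA entries. Leaving out 1 replicate gave 0 to 1 without arginine, 2 to 3 without BCAA, 1 to 2 without glucose, 1 to 2 without methionine, 1 to 3 with halofuginone in total RNA (2 with all replicates) and 0 to 2 with 4EGI-1 in polysome RNA. For the last, the count was 2, and 0 with the replicate block. The cause was not tested.

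No reversed value had passed the test. The Control ratio of Atf5 was -0.086 with DESeq2, -0.086 with RLE, -0.14 with TMM without ribosomal RNA entries and -0.0001731 with the replicate block, and that of Cebpb -0.001196 without ribosomal RNA entries. Atf5 TE with Torin1 was -0.013 with DESeq2 and RLE. Cebpg TE without glutamine was 0.074 with DESeq2 and RLE and 0.10 without ribosomal RNA entries, and without BCAA 0.032 in the last of these. Leaving out 1 replicate, TE ran from -0.0051 to 0.11 for Atf4 without methionine; for Atf5 from -0.10 to 0.19 without arginine, -0.046 to 0.21 without methionine, -0.23 to 0.040 with halofuginone and -0.042 to 0.10 with Torin1; for Cebpb from -0.032 to 0.24 with Torin1; and for Cebpg from -0.13 to 0.041 without glutamine, -0.16 to 0.036 with halofuginone, -0.027 to 0.17 with Torin1 and -0.11 to 0.080 with 4EGI-1. The Control ratio of Atf5 ran from -0.12 to 0.12, Atf5 in polysome RNA with halofuginone from -0.072 to 0.14 and Cebpb with 4EGI-1 from -0.0096 to 0.26.

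Over all genes, TE calls with 4EGI-1 numbered 72, against 375 with DESeq2, 9 in a fit of the 2 groups and 630 with the lysate as a replicate block, and increases made up 50% of them, 26.4% with RLE and 71.6% with the block. With Torin1 the number was 228 and 392 with DESeq2, and the share of increases 6.58% and 17.9% with the block. Halofuginone gave 35 calls in total RNA and 85 with DESeq2, and 6 in polysome RNA, 60 with DESeq2 and 1 in a fit of the 2 groups. Without arginine, TE calls numbered 2162, and 1326 in a fit of the 2 groups. Leaving out 1 replicate gave 526 (without NoArginine replicate 1) to 2903 of these, 8 (without DMSO replicate 3) to 117 for TE with 4EGI-1, 74 (without Torin1 replicate 1) to 242 for TE with Torin1 and 11 (without halofuginone replicate 3) to 35 for halofuginone in total RNA. Increases were 57.3% of the Control ratio calls, and 44.6% without ribosomal RNA entries. Replicate numbers across conditions share only a number: deviations of same-numbered libraries correlated by -0.201 to 0.343, and the replicate block brought Atf5 without arginine in polysome RNA (adjusted p = 0.0363) and Cebpg with halofuginone in total RNA (adjusted p = 0.0163) past the threshold and took Atf4 and Cebpg with 4EGI-1 in polysome RNA out (adjusted p = 0.059 and 0.079), with no other call of the 4 genes changed.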
